A study of Mus musculus with 6 samples.

Results

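Long intergenic noncoding RNAs (lincRNAs) are RNAs of spliced or single-exon genes that lie between protein-coding genes and carry no long reading frame. Here they were the genes of the deposited table with the biotype lincRNA and a mean of at least 20 counts over all 6 libraries, which gave 118 of 5559 lincRNA genes and of 54532 genes in all. They were chosen by their mean count over both groups, so their level is a description. The rule did not use the difference between the groups, but a gene high in a single group could meet it through that group. Of the 118, 7 had a control mean below 20 counts and 11 an LPS mean below 20. The lincRNAs were also chosen with earlier results of these data known. RNA was sequenced from N9 microglia, an immortalized mouse cell line, in 3 control libraries of unstimulated cells and in 3 libraries of cells stimulated with lipopolysaccharide (LPS) at 1 µg/ml for 6 h. LPS is a cell wall component of gram-negative bacteria that activates microglia through toll-like receptor signalling. The question was which lincRNAs changed with LPS, and whether the protein-coding genes next to them changed too. No source used here says that the replicates came from separate cultures, so p-values measure the spread between these samples, which may be technical.

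LincRNAs act in several ways. Some build nuclear bodies, some are the precursors of small nucleolar RNAs (snoRNAs) or microRNAs, some bind microRNAs or RNA-binding proteins, and for some the act of transcription affects a gene next to them. In macrophages and microglia, toll-like receptor signalling is known to change lincRNAs together with cytokine genes. Many lincRNAs have low levels, so the count behind each value sets what a comparison can show.

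The library totals lay between 16363767 and 17956772 counts, and 3 counts corresponded to between 0.161 and 0.190 CPM (counts scaled to a common library size). Of 15 markers of microglia and macrophages, 12 were tested, 3 rose and 4 fell, 1 of the latter past both thresholds (34.3% of all genes tested passed, and 2.65% passed both thresholds), and their summed level was 2219.3 to 2285.3 CPM in control and 2400.1 to 2460.2 CPM in LPS. Csf1r had 7140 to 8027 counts per library, whereas P2ry12 (3 to 6 counts), Aif1 (4 to 9) and C1qa (0 to 11) were close to 0 in both groups. P2ry12, Aif1 and C1qa were thus nearly absent, while 12 of the 15 markers of the list had enough counts for the test. The liver gene Alb was counted 2, 155 and 292 times in the control replicates 1 to 3 and 2, 0 and 0 times with LPS. All 18 markers of the hepatocyte list had a count in some library, 2 were tested and none passed (edgeR, with 0 also at an unadjusted p under 0.05 and 0 by DESeq2), and their summed level was 63.7 to 88.7 CPM in control and 59.9 to 66.9 CPM in LPS. The neuron list (3 tested, 1 higher and past both thresholds, 1 lower) summed to 27.3 to 28.2 CPM in control and 28.5 to 32.6 CPM in LPS, and the astrocyte list (2 tested, 1 lower) to 27.9 to 29.9 and 21.5 to 25.2 CPM. For oligodendrocytes (1 tested, 1 lower) it was 33.5 to 39.99 and 28.3 to 29.5 CPM, and for fibroblasts (3 tested, 0 called by edgeR, 0 at an unadjusted p under 0.05 and 0 by DESeq2) 0.454 to 11.7 and 0.792 to 8.11 CPM. The part of these markers in the results was not tested.

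The 118 lincRNAs took 0.116% to 0.139% of the counts of a library. Their summed level was 1295.8 ± 40.6 CPM in control and 1330.4 ± 110.4 CPM in LPS (mean ± SD, n = 3 each), and 5 of the genes held 51% of their counts. The mean count per gene ranged from 20 to 4209.7 with a median of 51.4, against a median of 526.9 over all 12296 genes tested, and 94 of the 118 were below 100. Their deposited gene lengths ran from 299 to 20771 bases with a median of 2081.5, against 1017 in the other lincRNA genes. In the GENCODE release M21 annotation, 116 of the 118 stood at the same position, 117 were again lincRNA, the median of the largest exon number of a transcript was 3, and 14 (11.9%) had a single exon, against 5.4% of the other lincRNAs. RefSeq (GRCm38.p6) held an entry under the same name or a synonym for 92 of them. It lists 79 as lncRNA, 11 as protein-coding, 1 as a pseudogene and 1 as a transcribed pseudogene, so the biotype of the table is not shared by every annotation.

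Around the limit of 20 counts, the genes just inside were 1300002E11Rik and Gm28901 (mean of 20 counts each) and Gm26694 (20.2). Just outside were Gm38150 (19.8), 5033406O09Rik (19.5) and Gm29243 (19.3). Of the 185 lincRNAs with enough counts for the test, 67 had a mean below 20 and are not among the 118.

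A smaller share of the well-counted lincRNAs than of all genes passed the test of LPS against control, but the lincRNAs were counted less deeply. Their median mean count was 51.4, against 526.9 over all genes tested, and shares at like depth are given below. All but 1 of the lincRNAs that passed stayed below an absolute log2FC of 1.5. Of the 118 lincRNAs, 20 (16.9%) had an adjusted p under 0.05 in edgeR's quasi-likelihood test, against 34.3% of all genes tested, 36% of all those that reach the same limit of 20 counts and 36.8% of the protein-coding genes. Of these 20, 12 rose and 8 fell, against 18.7% of all genes tested that rose and 15.7% that fell. This balance was not stable, at 6 higher and 9 lower without LPS replicate 2, 7 and 9 without control replicate 1, 7 and 7 without control replicate 3, 7 and 10 without LPS replicate 3, and 7 and 6 in DESeq2. Only Zfp469 also passed an absolute log2FC of 1.5 (0.847% of the lincRNAs, against 2.65% of all genes, 2.4% higher and 0.252% lower). Its control counts lay below 20, so it met the count limit through the LPS group, and none of the 100 lincRNAs with a mean of 20 or more counts in each group passed both thresholds. At an unadjusted p under 0.05 there were 33. In 33 lincRNAs (28.0%) the CPM values of the groups did not overlap, against 45.3% of all genes, and 18 of the 20 lincRNAs that passed were among them. The other 2, Gm47015 and Snhg6, overlapped. The median log2FC was -0.02 (0.00 over all genes tested), with 58 values above 0 and 60 below. A log2FC is the base 2 logarithm of the ratio of LPS to control, and SE is its standard error.

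**Figure D1:**
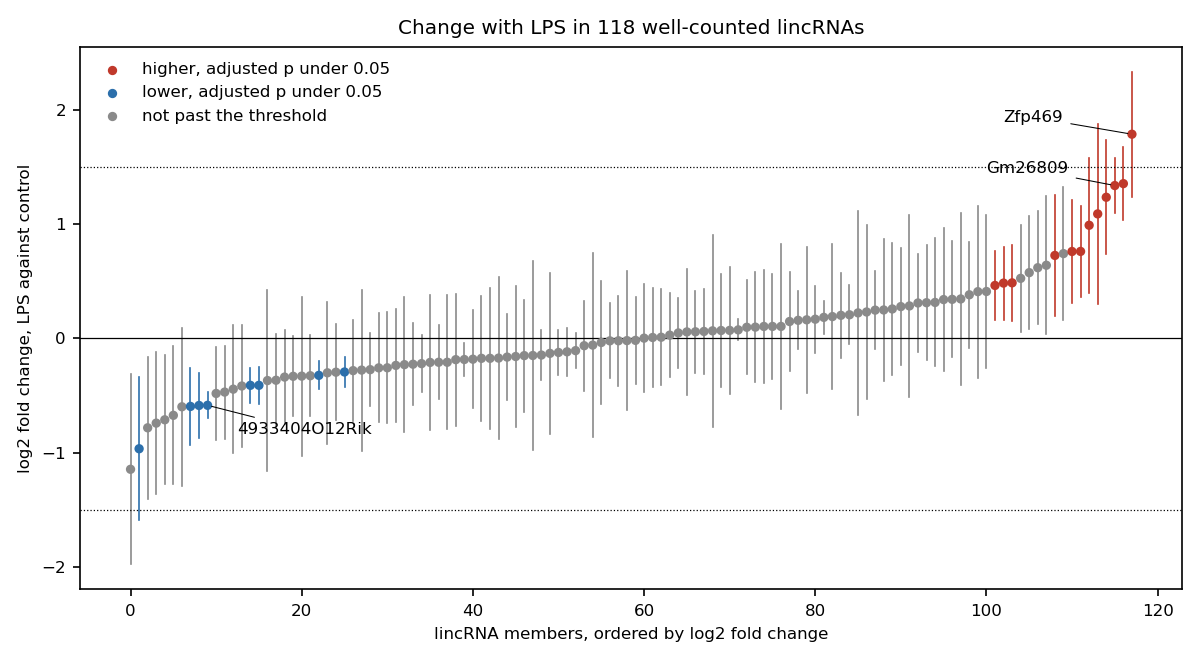
log2 fold change of LPS against control for each of the 118 lincRNAs, ordered by size, with vertical lines for the 95% interval (1.96 standard errors) and dotted lines at 1.5 in either direction. The 12 lincRNAs that rose (red) reach 1.79 and the 8 that fell (blue) reach -0.97. The lowest point, Gm13391 at -1.15, did not pass, and the intervals of most others that did not pass cross 0.

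The share of lincRNAs that passed was higher at 100 counts and above than below, though in few genes (15 and 9), and this difference was not tested. With a mean of 20 to 50 counts, 7 of 57 lincRNAs passed (12.3%), against 16.2% of all genes in that range. Between 50 and 100 counts it was 4 of 37 (10.8%, against 18.8%), and between 100 and 500 counts 5 of 15 (33.3%, against 30.0%). At 500 counts and above 4 of 9 passed (44.4%), and 44.5% of all genes did. The lincRNA share was thus below that of all genes under 100 counts and near it from 100 counts on. Each of these gaps was smaller than the gap without regard to depth. The median standard error of a log2FC was 0.25 in the lincRNAs and 0.08 over all genes. The 95% interval of the log2FC lay within 1.5 either side of 0 in 110 of the 118 lincRNAs, within 1 in 90 and within 0.5 in 24. For most lincRNAs the data thus exclude a change as large as the DEG limit of 1.5, while in most of them an interval of this width does not exclude a change of 0.5. Of the 20 that passed, 7 had an absolute log2FC below 0.5.

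**Figure D2:**
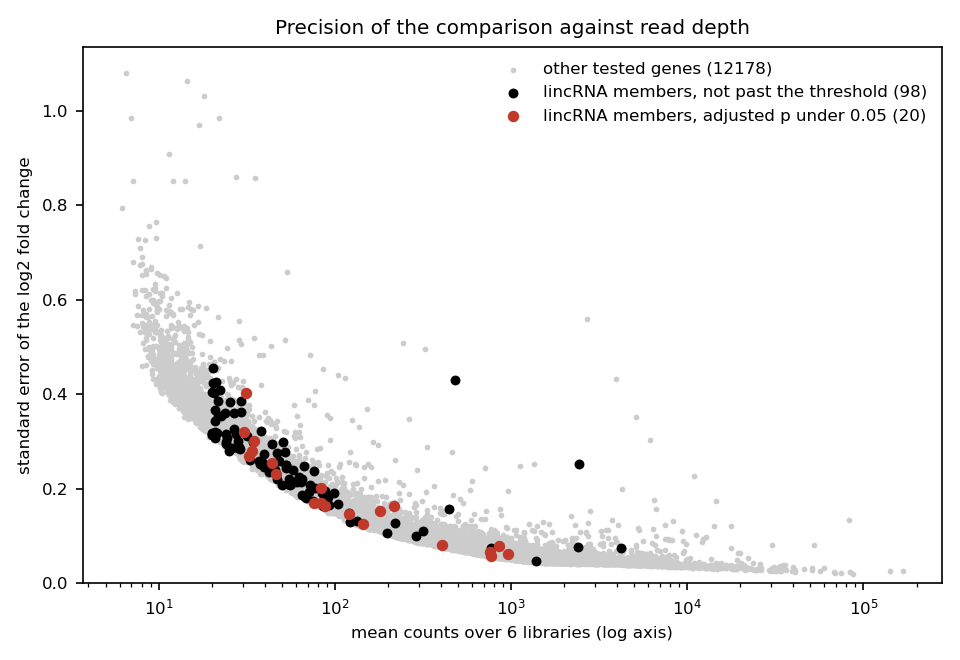
Standard error of the log2 fold change against the mean count over the 6 libraries (log axis), for the lincRNAs (black, or red where adjusted p was under 0.05) and all other tested genes (grey). The lincRNAs lie within the cloud of the other genes, mostly at its shallow end, where the median standard error is 0.31 for lincRNAs of 20 to 50 counts and 0.07 for those of 500 or more.

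In 11 of the 20, the call held in each of the 6 fits that left out 1 library and also in DESeq2. Of these, Zfp469, 4933432I03Rik, Gm26809, Gm32089 and AC166110.4 rose, with log2FC from 0.76 to 1.79. The other 6 fell, with log2FC from -0.59 to -0.29, and were G730013B05Rik, 1700020I14Rik, Tmem250-ps, AU020206, 4933404O12Rik and D5Ertd605e. DESeq2 called 13 lincRNAs, all of which edgeR called in the same direction. The lincRNAs that rose had a median mean count of 61.7, and those that fell one of 583.7.

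Zfp469 had the largest increase. Its counts were 18, 12 and 19 in control (replicates 1, 2 and 3, the order used throughout) and 56, 44 and 55 with LPS. The groups did not overlap, at 0.918 ± 0.206 CPM in control and 3.19 ± 0.453 CPM in LPS (log2FC = 1.79, SE 0.28, adjusted p = 1.5e-04, edgeR). Zfp469 is a large zinc finger gene known for its role in the cornea. The table lists it as lincRNA at chr8:122269569-122272650 on the plus strand, while RefSeq lists a protein-coding Zfp469 at chr8:122043123-122272650 that covers this row, so the only lincRNA past both thresholds is part of a protein-coding gene in the other annotation. A protein-coding row without a count in any library, Gm20388, spans the region and was its nearest protein-coding gene. The nearest tested one, Zfpm1, which encodes a cofactor of GATA factors and starts 9491 bases away, had a log2FC of -0.04 (SE 0.10, adjusted p = 0.781).

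4933432I03Rik lies on chr14:102987412-103033803 (minus strand), between Kctd12 and Acod1. Its counts were 46, 55 and 58 in control and 125, 114 and 132 in LPS. The level went from 2.97 ± 0.250 to 7.64 ± 0.596 CPM with no overlap (log2FC = 1.36, SE 0.16, adjusted p = 1.1e-05). Both of the genes beside it rose as well. Kctd12, an auxiliary subunit of GABA-B receptors at a gap of 4775 bases, went from 21.5 ± 2.04 to 53.6 ± 2.61 CPM (log2FC = 1.32, SE 0.08, adjusted p = 4.5e-09). Acod1, which makes itaconate in activated macrophages, starts 13174 bases from the start of the lincRNA and went from 151.5 ± 4.01 to 3963 ± 134.5 CPM (log2FC = 4.71, SE 0.04, adjusted p = 5.8e-19). A further lincRNA, Gm34643, named here after its values were seen, overlaps 4933432I03Rik. Its 23, 34 and 41 counts in control and 42, 50 and 45 in LPS did not overlap between groups, but it did not pass (log2FC = 0.62, SE 0.25, adjusted p = 0.073). Whether the counting of reads used the strand is not given in the sources used here, so reads in the shared stretch could belong to either.

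The start of 4933432I03Rik is shown because it lies between 2 genes that rose. The 300 bases from 250 before to 50 after the start (RefSeq, GRCm38.p6, chr14:103033754-103034053, minus strand) hold 1 of the motifs searched, an SP1 GC box (GGGCGG) at position -28, in capitals.

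4933432I03Rik: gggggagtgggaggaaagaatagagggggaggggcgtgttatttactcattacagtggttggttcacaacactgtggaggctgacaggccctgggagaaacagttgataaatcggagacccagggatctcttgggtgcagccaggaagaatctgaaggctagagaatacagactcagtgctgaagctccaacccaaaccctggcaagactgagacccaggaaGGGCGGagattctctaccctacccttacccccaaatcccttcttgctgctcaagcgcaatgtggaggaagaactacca

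Gm26809 (chr6:18844220-18847360, plus strand) had the most even values of the lincRNAs that rose. It was counted 87, 82 and 92 times in control and 203, 207 and 192 times in LPS, and its level went from 4.89 ± 0.221 to 12.4 ± 0.621 CPM (log2FC = 1.34, SE 0.12, adjusted p = 7.7e-07). The gene 1219 bases downstream of it, Lsm8, a subunit of the ring that binds U6 small nuclear RNA, was at 32.6 ± 5.13 and 32.2 ± 2.04 CPM (log2FC = -0.01, SE 0.10, adjusted p = 0.929). Gm32089 (chr13:94289448-94295006, minus strand) gave 22, 37 and 25 counts in control and 54, 56 and 71 in LPS (log2FC = 1.24, SE 0.26, adjusted p = 0.0016). Its neighbour Scamp1, a membrane protein of secretory carriers 3591 bases away, had 58.3 ± 2.19 CPM in control and 60.4 ± 2.15 CPM in LPS (log2FC = 0.05, SE 0.05, adjusted p = 0.515). In these pairs the lincRNA rose while no change of the neighbour was found, with standard errors of 0.10 and 0.05 for the neighbours.

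AC166110.4 (chr17:13330748-13333842, plus strand) had 45, 69 and 84 counts in control and 106, 112 and 87 in LPS. The groups came close, at 3.69 ± 0.966 and 6.28 ± 0.855 CPM (log2FC = 0.76, SE 0.20, adjusted p = 0.0090). Its nearest protein-coding gene, Tcp10c, had 2 counts in LPS replicate 1 and none in the other libraries, and was not tested. The nearest tested gene, Sod2, 290685 bases away, which encodes mitochondrial superoxide dismutase, rose (log2FC = 1.48, adjusted p = 5.3e-13).

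Ptgs2os2, known as lincRNA-Cox2, is the best described lincRNA of toll-like receptor signalling and is known to act on immune genes in macrophages. It had 34, 37 and 39 counts in control and 58, 67 and 45 in LPS. The level was 2.06 ± 0.0652 CPM in control and 3.50 ± 0.690 CPM in LPS without overlap (log2FC = 0.76, SE 0.23, adjusted p = 0.0196). The call was lost in DESeq2 (adjusted p = 0.068) and in 4 of the 6 fits that left out a library, with adjusted p from 0.053 to 0.102 in those 4 (without control replicate 1 or 3, or LPS replicate 1 or 2). Ptgs2, which encodes cyclooxygenase-2, was its nearest protein-coding gene at a gap of 50816 bases. It had 661, 643 and 666 counts in control and 1447, 1373 and 1369 in LPS (log2FC = 1.22, SE 0.06, adjusted p = 4.1e-10).

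The start of Ptgs2os2 (chr1:150164899-150165198, minus strand) is shown as that of a gene known to answer LPS. It holds the letters of an interferon-stimulated response element (ISRE, TTTC, any 2 bases, then TTTC) at -73, a CCAAT box (CCAAT) at -17 and a gamma-activated site (GAS, TTCNNNGAA) at 40, and no NF-kappaB letters (GGG, any 3 bases, then TTCC).

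Ptgs2os2: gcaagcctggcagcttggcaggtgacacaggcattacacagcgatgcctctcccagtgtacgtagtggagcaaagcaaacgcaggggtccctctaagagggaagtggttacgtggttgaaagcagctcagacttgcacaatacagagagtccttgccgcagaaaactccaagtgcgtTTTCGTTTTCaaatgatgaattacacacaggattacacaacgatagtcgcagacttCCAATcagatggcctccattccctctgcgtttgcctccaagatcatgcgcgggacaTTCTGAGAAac

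Gm7160 and 4930589L23Rik start close to a protein-coding gene on the other strand, head to head. Gm7160 (chr1:105979350-105990282, minus strand) had 27, 28 and 19 counts in control and 30, 46 and 59 in LPS (log2FC = 0.99, SE 0.30, adjusted p = 0.0193). Zcchc2, a zinc finger gene whose start is 124 bases away, went from 62.6 ± 3.38 to 108.6 ± 6.04 CPM (log2FC = 0.79, SE 0.06, adjusted p = 3.4e-08). 4930589L23Rik (chr3:79568192-79572580, plus strand) had 24, 6 and 34 counts in control and 50, 39 and 35 in LPS (log2FC = 1.09, SE 0.40, adjusted p = 0.0491). Fnip2, which encodes a partner of folliculin and starts 396 bases away, went from 284.6 ± 24.3 to 403.5 ± 16.6 CPM (log2FC = 0.50, SE 0.06, adjusted p = 5.7e-06). Both lincRNA calls were fragile. That of Gm7160 was lost without control replicate 3, LPS replicate 2 or LPS replicate 3 (adjusted p from 0.063 to 0.111), and that of 4930589L23Rik held in 1 of 6 such fits and was lost in DESeq2 (adjusted p = 0.073). The log2FC of 4930589L23Rik was 0.65 without control replicate 2 and 1.55 without control replicate 3.

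The window of Gm7160 (chr1:105990233-105990532, minus strand) is shown because it contains the starts of both genes of the pair. It holds GC boxes at -123 and -20, the latter on the other strand, and a CCAAT box at -84.

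Gm7160: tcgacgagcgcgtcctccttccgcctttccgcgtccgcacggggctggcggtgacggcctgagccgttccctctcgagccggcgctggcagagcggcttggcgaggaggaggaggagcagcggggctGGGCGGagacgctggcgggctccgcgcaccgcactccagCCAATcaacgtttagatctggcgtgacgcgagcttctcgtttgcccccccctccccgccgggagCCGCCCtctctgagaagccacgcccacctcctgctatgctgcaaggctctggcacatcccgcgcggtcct

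The remaining lincRNAs that passed upward changed less. They were Gm14221 (log2FC = 0.73, adjusted p = 0.04997), AC130815.2 (0.49, adjusted p = 0.038), Gm47015 (0.48, adjusted p = 0.033) and Snhg6. The first 3 of these are named because they complete the 12, and their calls held in 1, 1 and 3 of the 6 fits that left out a library.

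The lincRNAs that fell were led in precision by 4933404O12Rik (chr5:136919146-136937112, plus strand). It had 900, 946 and 1034 counts in control and 566, 590 and 590 in LPS. The level fell from 53.9 ± 1.57 to 35.9 ± 0.0531 CPM, and the LPS libraries were, relative to their mean, closer together than in any other of the 118 (log2FC = -0.59, SE 0.06, adjusted p = 1.5e-06). Its neighbour Ift22, an intraflagellar transport gene 3742 bases away, was at 28.2 ± 1.81 and 32.5 ± 1.78 CPM (log2FC = 0.21, SE 0.08, adjusted p = 0.052). The start of the lincRNA (chr5:136918896-136919195, plus strand) holds none of the 7 motifs searched and is printed beside the others for comparison.

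4933404O12Rik: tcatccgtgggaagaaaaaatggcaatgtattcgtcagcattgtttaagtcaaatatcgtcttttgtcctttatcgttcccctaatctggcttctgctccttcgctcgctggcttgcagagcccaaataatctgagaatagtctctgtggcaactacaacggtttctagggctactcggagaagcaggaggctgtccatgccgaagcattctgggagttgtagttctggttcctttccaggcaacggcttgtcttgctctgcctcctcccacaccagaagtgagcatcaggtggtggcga

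1700020I14Rik, which RefSeq names Oip5os1 and which is also known as Cyrano, is a conserved lincRNA with a site that pairs with a microRNA. It lies on chr2:119594297-119607502 (plus strand). Its counts were 1063, 1113 and 1162 in control and 752, 780 and 898 in LPS, and it fell from 62.6 ± 0.522 to 49.97 ± 4.08 CPM (log2FC = -0.32, SE 0.06, adjusted p = 8.6e-04). The gene it faces at a gap of 2010 bases, Oip5, needed for the loading of centromeric histone, had 250, 274 and 228 counts in control and 145, 180 and 130 in LPS and also fell (log2FC = -0.59, SE 0.14, adjusted p = 0.0034). The window at the start of the lincRNA (chr2:119594046-119594345, plus strand) is shown as that of the best known lincRNA that fell. It has CCAAT boxes at -70 and -29 and GC boxes at -9 and, on the other strand, at 12.

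1700020I14Rik: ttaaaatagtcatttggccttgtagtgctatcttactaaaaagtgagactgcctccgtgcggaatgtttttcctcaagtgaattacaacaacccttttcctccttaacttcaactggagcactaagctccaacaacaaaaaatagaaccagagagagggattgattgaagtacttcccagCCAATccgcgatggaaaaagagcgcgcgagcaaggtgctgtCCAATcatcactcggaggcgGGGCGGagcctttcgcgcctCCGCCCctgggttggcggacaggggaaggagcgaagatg

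AU020206 (chr7:75769038-75782099, minus strand) had 920, 1087 and 1018 counts in control and 594, 756 and 724 in LPS (log2FC = -0.41, SE 0.08, adjusted p = 8.1e-04). It moved against its neighbour Akap13, an anchoring protein for protein kinase A, which rose from 183.3 ± 15.7 to 257.4 ± 15.9 CPM at a gap of 14429 bases (log2FC = 0.49, SE 0.06, adjusted p = 2.0e-05). The gene with the nearest start, Klhl25 at 66211 bases, an adaptor of a ubiquitin ligase, fell as the lincRNA did (log2FC = -0.40, adjusted p = 0.0030). Tmem250-ps (chr2:26136814-26140521, minus strand), protein-coding in RefSeq, had 461, 491 and 484 counts in control and 317, 353 and 314 in LPS (log2FC = -0.41, SE 0.08, adjusted p = 0.0012). Its neighbour Nacc2, a transcriptional repressor 13594 bases away, fell with it (log2FC = -0.57, SE 0.09, adjusted p = 2.4e-04). G730013B05Rik (chr16:50526245-50559459, plus strand) had the smallest change that passed. Its counts were 797, 850 and 985 in control and 635, 678 and 639 in LPS (log2FC = -0.29, SE 0.07, adjusted p = 0.0028), and its neighbour Ccdc54 had at most 7 counts in a library and was not tested. The nearest tested gene, Bbx, 93855 bases away, fell (log2FC = -0.32, adjusted p = 9.7e-04).

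D5Ertd605e (chr5:147418601-147423044, plus strand) had 155, 148 and 147 counts in control and 85, 81 and 107 in LPS (log2FC = -0.59, SE 0.15, adjusted p = 0.0059). Pan3, a subunit of a deadenylase 7117 bases away, had a log2FC of 0.01 (SE 0.08, adjusted p = 0.964). Gm33370 (chr5:96910341-96922175, minus strand) had 90, 96 and 127 counts in control and 63, 62 and 63 in LPS (log2FC = -0.60, SE 0.17, adjusted p = 0.0141), and lost its call without control replicate 3 (adjusted p = 0.084) and in DESeq2 (adjusted p = 0.051). The annexin gene Anxa3, 64375 bases from it, moved the other way (log2FC = 0.28, SE 0.05, adjusted p = 0.0010). Gm17745 (chr10:93335393-93348877, plus strand) was the shallowest of the lincRNAs that fell, with 40, 30 and 55 counts in control and 13, 19 and 26 in LPS (log2FC = -0.97, SE 0.32, adjusted p = 0.030). Its LPS mean is below 20, so it met the count limit through the control group, and 7 of the 8 that fell reached 20 in each group. Its call held in 2 of 6 fits that left out a library and was lost in DESeq2 (adjusted p = 0.076), while Elk3, an ETS transcription factor gene whose start faces it at 24258 bases, fell slightly (log2FC = -0.18, SE 0.05, adjusted p = 0.0064). Gm13391, which also met the limit through the control group alone, did not pass and was named after its values were seen. It had 35, 35 and 20 counts in control and 10, 21 and 6 in LPS (log2FC = -1.15, SE 0.43, adjusted p = 0.0504).

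**Figure D3:**
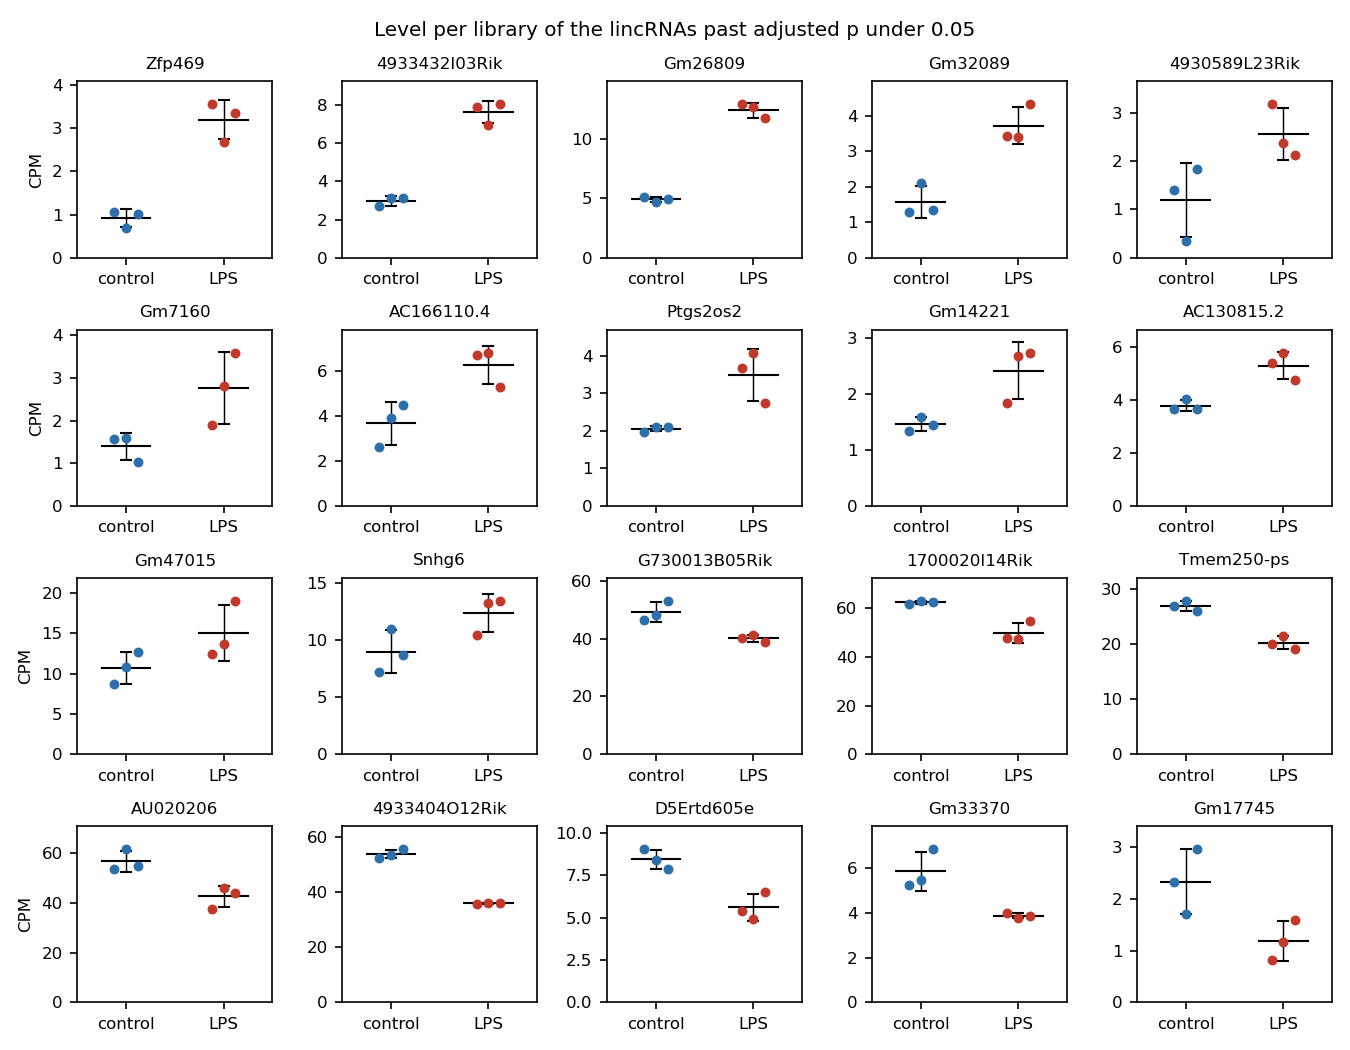
CPM in each library (points; blue control, red LPS) with the group mean and SD (n = 3, black) for the 20 lincRNAs with an adjusted p under 0.05, on axes that start at 0. The groups are apart in 18 panels, and the points of Gm47015 and Snhg6 overlap between groups.

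The motif letters were searched on both strands of the RefSeq windows from 250 bases before to 50 after each start, and matches of different motifs may share bases, although none did in the windows printed here. Windows were found for 70 of the 118 lincRNAs (84 windows), for 12 of the 20 that passed (14 windows, of which 6 belong to lincRNAs that rose). The NF-kappaB letters were in 9 of the 84 windows (10.7%, against 5.56% of all 32851 windows) and in 0 of the 6 windows of lincRNAs that rose. The ISRE letters were in 4.76% against 3.44%, and in 1 of the 6. AP-1 letters (TGANTCA) stood in 14.3% against 7.81%, GAS letters (TTCNNNGAA) in 4.76% against 8.3%, and the letters of the cAMP response element (TGACGTCA) in 3.57% against 1.79%. The CCAAT box was in 44.0% against 37.4% and the GC box (GGGCGG) in 32.1% against 35.7%. These are counts of letters in a window and carry no test.

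The lincRNAs of the nuclear bodies did not pass. Malat1, an RNA of nuclear speckles, had 1375, 2523 and 2315 counts in control and 1444, 3016 and 3994 in LPS. Replicate 1 was the lowest library of both groups and the groups overlapped, with 116.0 ± 32.3 CPM in control and 172.9 ± 76.4 CPM in LPS (log2FC = 0.58, SE 0.25, adjusted p = 0.097). Leaving out 1 library moved the log2FC between 0.25 (without LPS replicate 3) and 0.88 (without LPS replicate 1), and it was 0.36 without control replicate 1. It passed in 1 of these 6 fits, that without LPS replicate 1 (adjusted p = 0.0012), and with all libraries under a replicate block (log2FC = 0.52, adjusted p = 5.8e-04) and with no filter on low counts (0.57, adjusted p = 3.4e-26). In the fit with no filter, the prior degrees of freedom, the weight of the spread shared over genes, were infinite (10.07 in the main fit). Its p-value thus took no account of the spread of Malat1 itself between libraries. Neat1, the RNA on which paraspeckles form, had 424, 488 and 456 counts in control and 280, 532 and 480 in LPS (log2FC = 0.05, SE 0.16, adjusted p = 0.846). It too had its lowest value in LPS replicate 1, and without that library it passed (log2FC = 0.27, adjusted p = 0.043), while the other 5 such fits gave -0.12 to 0.10 and did not pass. Among the 118 lincRNAs, replicate 1 was the lowest LPS library in 50 and the lowest control library in 48. The same share over all genes is not given here, so these counts do not set the lincRNAs apart from other genes. Of 10 proteins of paraspeckles, none passed (edgeR, with 1 at an unadjusted p under 0.05 and 0 by DESeq2), against 34.3% of all genes tested, and their median log2FC was -0.02.

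Per length, the highest levels belonged to Gm26917, which lies next to a RefSeq pseudogene, and to Gm10076, which RefSeq lists as one. Gm26917 had 69.9 ± 8.70 CPM per kb in control and 79.4 ± 5.23 in LPS (mean ± SD, n = 3 each), with 4395, 3536 and 4479 counts in control and 4158, 4627 and 4063 in LPS (log2FC = 0.18, SE 0.07, adjusted p = 0.072). Leaving out 1 library moved it from 0.08 (without control replicate 2, adjusted p = 0.337) to 0.25 (without control replicate 1, adjusted p = 0.012), which passed. It also passed with no filter on low counts (adjusted p = 0.0017) and under a replicate block (adjusted p = 0.041). As for Malat1, the fit with no filter did not use the gene's own spread between libraries. Its row ends 12 bases before Rn18s-rs5, a RefSeq pseudogene of the ribosomal RNA family (chr17:39846354-39848202), and the part of ribosomal reads in its count was not tested. Gm10076 had 71.2 ± 42.0 and 75.1 ± 47.6 CPM per kb. Its counts swung within the groups, at 326, 301 and 854 in control and 609, 658 and 127 in LPS (log2FC = 0.07, SE 0.43, adjusted p = 0.925).

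Of the next 6 genes in that order, AU020206 and G730013B05Rik passed the test and the others did not. 1810058I24Rik, protein-coding in RefSeq as the gene of a small mitochondrial protein, was at 28.6 ± 0.535 CPM per kb in control and 30.2 ± 0.907 in LPS (log2FC = 0.07, SE 0.05, adjusted p = 0.250). 2900097C17Rik is Norad, an abundant RNA known to bind Pumilio proteins. It was at 29.6 ± 1.06 and 27.4 ± 3.95 CPM per kb, and its 2541, 2616 and 2590 counts in control and 1815, 2225 and 2527 in LPS overlapped after scaling (log2FC = -0.11, SE 0.08, adjusted p = 0.325). Leaving out 1 library moved it from -0.01 (without LPS replicate 1, adjusted p = 0.962) to -0.21 (without LPS replicate 3, adjusted p = 0.034), which passed. Malat1 followed at 16.6 ± 4.62 CPM per kb in control and 24.8 ± 10.9 in LPS. Epb41l4aos was at 15.9 ± 0.775 and 17.8 ± 0.372, AU020206 at 17.8 ± 1.35 and 13.4 ± 1.38, and G730013B05Rik at 17.2 ± 1.17 and 13.99 ± 0.425. In control these 4 genes lay between 15.9 and 17.8 CPM per kb, closer than their spread allows to order. The median over all 118 was 1.39 CPM per kb over the 6 libraries.

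**Figure D4:**
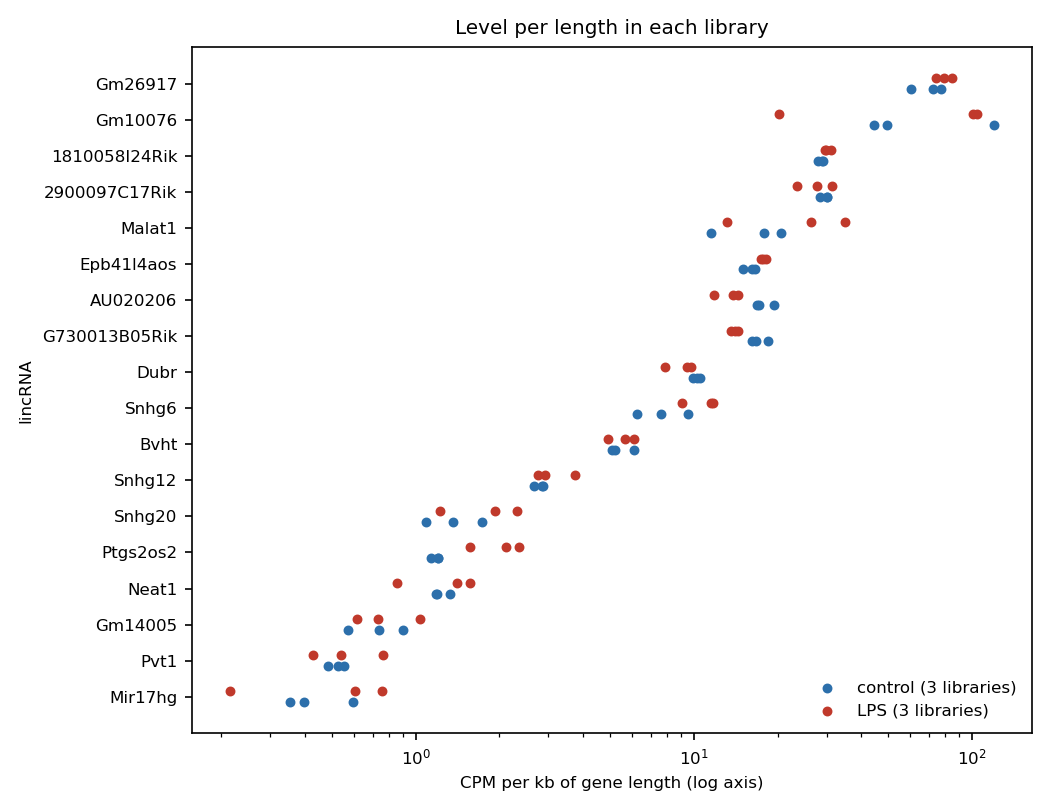
CPM per kb of gene length in each library (log axis; blue control, red LPS, 3 libraries each) for the 8 lincRNAs with the highest level per length and the lincRNAs of known role. Gm26917 and Gm10076 stand highest, the points of Gm10076 and Mir17hg are spread widest, and the colours do not overlap in AU020206, G730013B05Rik and Dubr (LPS lower) or in Ptgs2os2, Epb41l4aos and 1810058I24Rik (LPS higher), of which Dubr, Epb41l4aos and 1810058I24Rik did not pass the test.

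Of the 31 noncoding hosts listed, of any biotype, 20 were tested, 5 rose and none fell in edgeR (6 at an unadjusted p under 0.05, and 2 called by DESeq2), with a median log2FC of 0.22. Of all genes tested, 34.3% passed and 18.7% rose. These 5 were Mir155hg, with a mean count below 20 and enough counts for the test in the LPS group alone, Zfas1 (log2FC = 0.50), Snhg6, Snhg8 (0.38) and Snhg17 (0.37). The 5 hosts among the well-counted lincRNAs were Snhg6, Snhg12, Snhg20, Epb41l4aos and Mir17hg, and of these Snhg6 alone passed. Snhg6 had an uneven set of counts, 123, 193 and 162 in control and 164, 217 and 220 in LPS (log2FC = 0.46, SE 0.15, adjusted p = 0.030), with groups that overlapped, a call held in 2 of 6 fits that left out a library, and an adjusted p of 0.056 in DESeq2. Snhg12 (log2FC = 0.17, SE 0.15), Snhg20 (0.38, SE 0.24) and Epb41l4aos (0.16, SE 0.13) did not pass. Without LPS replicate 3 the log2FC was 0.02 in Snhg12 and 0.17 in Snhg20, and without LPS replicate 1 it was 0.60 in Snhg20.

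Mir17hg is the precursor of the miR-17-92 cluster, whose microRNAs are known for roles in cell growth and in macrophage responses. It had 24, 22 and 39 counts in control and 12, 35 and 44 in LPS (log2FC = 0.23, SE 0.39, adjusted p = 0.693), and the 95% interval from -0.53 to 0.99 leaves its direction unknown. The counts are of the precursor and not of the mature microRNAs. The hairpins of the cluster lie within the gene, and their main mature products (RefSeq, GRCm38.p6, chr14, plus strand) are shown with the seed, bases 2 to 8, in capitals, since the seed sorts them into families. miR-17-5p and miR-20a-5p share AAAGUGC, miR-19a-3p and miR-19b-3p share GUGCAAA, and miR-18a-5p (AAGGUGC) and miR-92a-3p (AUUGCAC) have seeds of their own.

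miR-17-5p: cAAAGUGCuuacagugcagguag
miR-20a-5p: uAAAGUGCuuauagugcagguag
miR-18a-5p: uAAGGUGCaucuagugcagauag
miR-19a-3p: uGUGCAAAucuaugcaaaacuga
miR-19b-3p: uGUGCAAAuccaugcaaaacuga
miR-92a-3p: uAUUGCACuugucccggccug

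Other lincRNAs of known role showed no change past the threshold, even beside genes that rose. Pvt1, downstream of the proto-oncogene Myc, had 58, 65 and 72 counts in control and 47, 62 and 88 in LPS (log2FC = 0.15, SE 0.22, adjusted p = 0.655), while Myc had 51, 76 and 55 counts in control and 440, 445 and 398 in LPS (log2FC = 2.95, SE 0.14, adjusted p = 3.0e-10). The 95% interval of Pvt1, from -0.28 to 0.58, excludes a change of the size seen in Myc. Gm14005 is Morrbid, an RNA known to control the life span of myeloid cells by repressing Bcl2l11, a gene of programmed cell death. It had 63, 41 and 56 counts in control and 47, 41 and 69 in LPS (log2FC = 0.10, SE 0.25, adjusted p = 0.789), and Bcl2l11 rose from 36.6 ± 1.19 to 79.5 ± 2.64 CPM (log2FC = 1.12, SE 0.06, adjusted p = 5.9e-10). AI427809, with the RefSeq synonym Mexis, an RNA known from work on the cholesterol transporter gene Abca1, was named after its values were seen. Its log2FC was 0.11 (SE 0.24, adjusted p = 0.773) and that of Abca1 was 0.96 (SE 0.10, adjusted p = 3.4e-06). Dubr (log2FC = -0.18, SE 0.08, adjusted p = 0.073) and Bvht, known from heart development (0.03, SE 0.19, adjusted p = 0.925), did not pass. Of the lincRNAs of any biotype listed for innate immunity, 6 of 12 were tested and 2 rose, Ptgs2os2 and Mir155hg (1 called by DESeq2), the latter with enough counts for the test in the LPS group alone. Of all genes tested, 34.3% passed and 18.7% rose. Of those listed for growth, stress or imprinting, 8 of 17 were tested and none passed (edgeR, with 1 at an unadjusted p under 0.05 and 0 by DESeq2). Of those of the X inactivation centre, 2 of 5 were tested and none passed (0 at an unadjusted p under 0.05 and 0 by DESeq2).

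Most lincRNAs lay close to a protein-coding gene. The 118 had 113 different nearest protein-coding genes at a median gap of 5308.5 bases. Of the lincRNAs, 18 overlapped that gene, 40 lay within 1 kb of it (the 18 included), 68 within 10 kb and 19 beyond 50 kb. By orientation, 26 faced the start of the gene with their own start, 19 faced its end, and 26 lay downstream and 29 upstream of it on the same strand. Of the 118, 15 overlapped another gene with counts, and without knowledge of strand the counts of those cannot be told apart.

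In 96 pairs the nearest gene was tested. Of these neighbours 38 passed, 23 higher and 15 lower, a share that stands beside 36.8% for all protein-coding genes. Both genes of the pair passed in 10 pairs, in 8 of them in the same direction. Among the 11 lincRNAs whose call held whichever library was left out, this leaves 4 pairs, 3 in the same direction. Among the 10 pairs, the exceptions were AU020206 with Akap13, which is also among the 4, and Gm33370 with Anxa3, which is not. When the neighbour was instead the gene with the nearest start, both passed in 11 pairs, 10 of them in the same direction. Over the 96 pairs the log2FC of lincRNA and neighbour had a Pearson r of 0.20 and a Spearman coefficient of 0.21. In the 58 pairs within 10 kb r was 0.47 and the Spearman coefficient 0.27, in the 33 within 1 kb 0.51 and 0.25, and in the 38 pairs beyond 10 kb 0.21 and 0.15. In the 16 pairs whose starts face each other within 1 kb r was 0.67 and the Spearman coefficient 0.29, with the pairs of Gm7160 and 4930589L23Rik at the upper end. These are descriptions across pairs that share the 6 libraries and whose members near each other may share reads, and the Spearman coefficient was below r in each of the close groups of pairs. In the 58 pairs within 10 kb 8 neighbours rose and 13 fell, and in the 38 beyond 10 kb 15 rose and 2 fell. These counts stand beside 18.7% of all genes tested that rose and 15.7% that fell, and the split by distance was not tested.

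**Figure D5:**
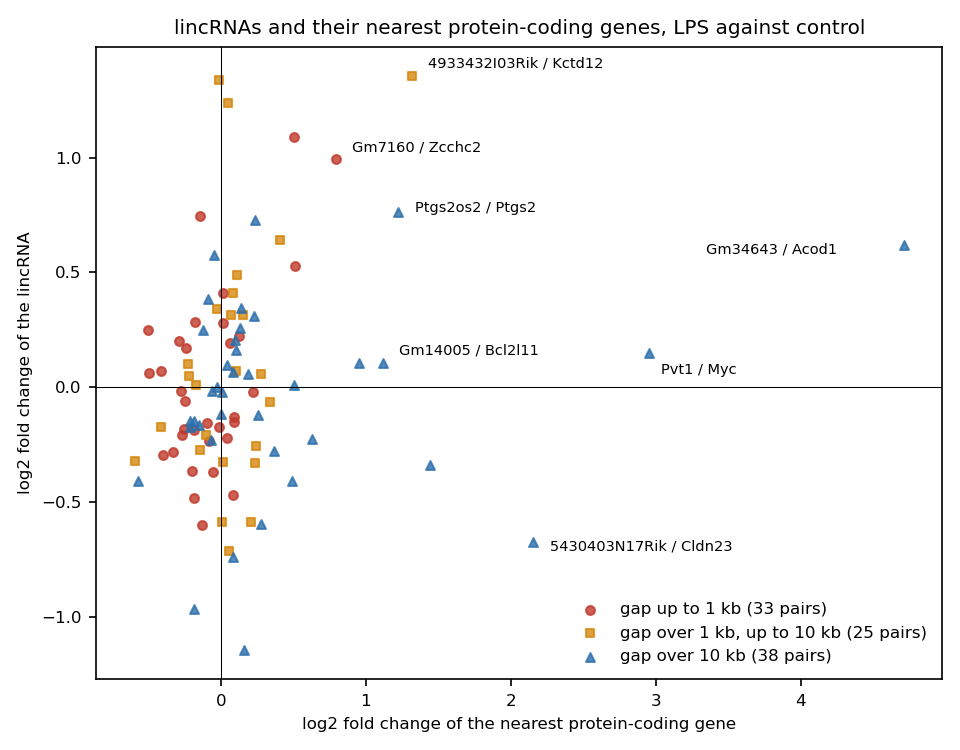
log2 fold change of each lincRNA against that of its nearest protein-coding gene for the 96 pairs with a tested neighbour, marked by gap. Neighbours with the largest increases, Acod1 (4.71), Myc (2.95) and Cldn23 (2.16), are drawn against lincRNAs at or below 0.62 (4933432I03Rik, at 1.36, lies closer to Acod1 but is drawn with its own nearest gene, Kctd12), and Pearson r is 0.47 in the pairs within 10 kb (red and orange) and 0.21 in those beyond (blue).

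Among the neighbours, the largest increases were those of Acod1, Myc and Cldn23, the nearest genes of Gm34643, Pvt1 and 5430403N17Rik, and none of these lincRNAs passed. Acod1 lies closer to 4933432I03Rik, which did pass, but whose own nearest gene is Kctd12. Cldn23, a claudin gene with 3, 5 and 4 counts in control and 13, 13 and 24 in LPS, rose by a log2FC of 2.16 (SE 0.49, adjusted p = 0.0031), but had enough counts for the test in the LPS group alone, while 5430403N17Rik, 37526 bases away and named after its values were seen, had 27, 35 and 31 counts in control and 14, 16 and 23 in LPS (log2FC = -0.67, SE 0.31, adjusted p = 0.110). By the smallest gap, both genes of a pair rose in 4933432I03Rik, Ptgs2os2, Gm7160, 4930589L23Rik and Gm14221, with Top1 as its neighbour (log2FC = 0.23, adjusted p = 9.8e-04). In 1700020I14Rik, Tmem250-ps and Gm17745 both fell.

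The machinery that makes or degrades noncoding RNA was listed as well. Of 10 genes of microRNA processing, Ago2 rose (log2FC = 0.21) and Ago1 (-0.20) and Ago4 (-0.50) fell. These encode Argonaute proteins, which carry microRNAs. Of 16 tested genes of the nuclear RNA exosome and its adaptors, the exosome subunits Exosc3 (0.20) and Exosc4 (0.27) rose, and the subunit Exosc8 (-0.20) and the adaptor Zcchc8 (-0.37) fell. DESeq2 called 3 genes of the first list and 2 of the second. Both lists held genes of both directions, with 3 of 10 and 4 of 16 genes past the threshold, against 34.3% of all genes tested.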

How the data were processed

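RNA-seq was performed on N9 microglia in 3 control and 3 LPS libraries, grouped by the labels of the series. The authors deposited raw read counts per gene for 54532 genes. The labels' processing notes name featureCounts 1.5.0-p3 and mm10, and the paper names DESeq2. The aligner, the annotation release and the use of strand are not given in the sources used here. The authors' own comparison, with fold changes and p-values, and its 18 per-sample and 2 group mean columns were not used.

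The counts were tested with edgeR 4.0.16 (R 4.3.3): TMM scaling, filterByExpr by group, a prior count of 0.125 and the quasi-likelihood test, with Benjamini-Hochberg adjustment over the 12296 genes tested. The thresholds were an adjusted p under 0.05 and, for a DEG, an absolute log2FC over 1.5. SE is the size of log2FC divided by the square root of F, and 95% intervals are 1.96 SE. CPM were TMM-scaled. No source mentions molecular identifiers, so limits from counts cover counting error alone.

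Nearest protein-coding genes were taken by the smallest gap between the deposited coordinates. The named lincRNAs are those past both thresholds, the 8 with the largest rise and the 8 with the largest fall among those that passed without overlap, the 8 highest per length, those in lists of known roles, 3 on each side of the count limit, and the neighbours of the first 2 kinds. The lincRNAs and lists were chosen with earlier results of these data known. The fit was tested on simulated counts of LPS against control for 54532 genes and recovered 200 of 200 changed genes among 12318 tested, with 15 false calls. Every gene was simulated with the same dispersion. The changed genes had a log2FC of 1 or 2 in either direction and were drawn from all biotypes with a mean of at least 20 counts. The recovery thus does not give the power for the lincRNAs. Within groups, each pair of libraries differed by more than sampling noise (chi-square per gene 3.61 to 7.82). The alternatives were DESeq2 1.42.0, other scalings, filters, count limits and distances, glmTreat, a replicate block and each library left out. Of the lists of RNA-processing genes, 1 is not reported here.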

Additional observations from a re-analysis of the deposited data

How the results depend on the processing

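The number of well-counted lincRNAs with an adjusted p under 0.05 was 20 (12 higher, 8 lower, 1 past both thresholds) in edgeR. DESeq2 called 13, of which 7 were higher. With glmTreat, which tests for a change beyond a log2FC of 1.5, it was 0 called, 0 higher, 0 lower and 0 past both thresholds (0 also at an unadjusted p under 0.05), against 183 of all 12296 genes tested, and 2 of their nearest protein-coding genes were called instead of 38. Leaving out 1 library in turn gave 14 to 19 called, 6 to 12 higher, 7 to 10 lower, 1 to 2 past both thresholds and 36 to 40 neighbours. The higher calls were 7 without control replicate 1, control replicate 3 or LPS replicate 3 and 6 without LPS replicate 2, and 2 lincRNAs passed both thresholds without control replicate 3 or LPS replicate 2. A limit of a mean of 10 counts let in genes that raised those past both thresholds to 3, and a limit of 50 counts left 13 called, 6 higher and 0 past both thresholds. Those past both thresholds were also 0 among the 105 lincRNAs that RefSeq does not list as protein-coding or pseudogene and among the 100 with a mean of at least 20 counts in both groups, 2 alternatives chosen after seeing the data. With neighbours within 10 kb only, 21 were called. RLE factors, TMM on protein-coding genes, no filter, a filter at a mean of 10 counts and robust dispersion gave 18 to 22 called.

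Among the named lincRNAs, 366 alternative values kept direction and side of the threshold, 45 lost the call, 10 gained one and 13 changed sign, all of the last in lincRNAs that were not called. These were, leaving out 1 library, Gm10076 (-0.15, -0.19, -0.20 and -0.25), Mir17hg (-0.12), Neat1 (-0.12 and -0.03), Gm14005 (-0.06 and -0.13), Pvt1 (-0.11) and Bvht (-0.01, -0.03 and -0.04). Over these fits the ranges were -0.25 to 0.67 in Gm10076, -0.12 to 0.60 in Mir17hg, -0.12 to 0.27 in Neat1, -0.13 to 0.26 in Gm14005, -0.11 to 0.32 in Pvt1 and -0.04 to 0.11 in Bvht. The cause was not tested.

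Replicate numbers are shared between the groups, and the deviations of same-numbered samples correlated at 0.136, 0.059 and -0.004. Replicate 1 of each group correlated best with its own number, whereas control replicate 2 correlated best with LPS replicate 3 (0.091). These values do not settle whether the numbers pair the samples. With a replicate block 22 lincRNAs were called (13 higher, 9 lower) and 41 neighbours, and Malat1 and Gm26917 passed (adjusted p = 5.8e-04 and 0.041). Of the 118 lincRNAs, 94 had a mean below 100 counts, where the standard errors were wider.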

Other observations

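Below the limit of 20 counts, 5 of the 67 tested lincRNAs had an adjusted p under 0.05, and 2 of them passed both thresholds, against 34.3% and 2.65% of all genes tested. Mir155hg, the precursor of miR-155, a microRNA known to rise in activated macrophages, had 3, 6 and 3 counts in control and 18, 37 and 30 in LPS (log2FC = 2.92, SE 0.46, adjusted p = 1.5e-04, edgeR). Gm29154 had 36, 20 and 32 counts in control and 8, 4 and 12 in LPS (log2FC = -1.73, SE 0.42, adjusted p = 0.0049). Each was kept for the test through the group where it was high, LPS for Mir155hg and control for Gm29154. Gm38150, just below the limit, also fell (log2FC = -0.95, SE 0.33, adjusted p = 0.037).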
